A study of Mus musculus with 33 samples.

Results

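Among 30815 genomic regions counted in a ChIP-seq study of cardiac reprogramming factors, 1196 (3.88%) held Mef2c signal when Mef2c was expressed by itself and passed the threshold for no factor when Mef2c was expressed together with Gata4 and Tbx5. They were chosen by their counts. For each factor and setting, library counts were summed, scaled to CPM (the count normalised to the summed total over the regions) and compared with the 9 input libraries combined, as E = log2((CPM + 5)/(input CPM + 5)). A region was taken as bound where E reached the log2 of 1.5, a 1.5-fold enrichment, which is the threshold named below. The member regions had E of Mef2c alone over this value, E of Gata4 alone and Tbx5 alone under it, and E of all 3 factors under it in cells that received the 3 together. Every E and every change of Mef2c in these regions is therefore set in part by the choice and is given as a description. The label of sites vacated by Mef2c held for only some of them, as the values below show.

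Mef2c is a MADS-box transcription factor of muscle and heart development that binds an A/T-rich DNA element. Gata4, a zinc-finger protein that recognises GATA sequences, and Tbx5, a T-box protein, are cardiac factors that, expressed with Mef2c, turn fibroblasts toward a heart muscle fate. In such cells a factor can bind with its partners at a site, and it can also be drawn away from sites that it occupies by itself.

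All cells came from an immortalised line of neonatal cardiac fibroblasts (strain Cd-1, genotype alpha-MHC-GFP, a heart muscle reporter) that expresses large T antigen. All libraries thus stand for a single line. They received retroviruses for Gata4, Mef2c and Tbx5 together ("with all 3 factors"), or the virus of 1 of these factors ("alone"), were cultured with sb431542, an inhibitor of TGF-beta signalling, and xav939, an inhibitor of Wnt signalling, and were taken unsorted at day 2. Every group shared the line, the reporter, the T antigen and both inhibitors, and cells without virus were not analysed here. Mef2c was pulled down with a rabbit monoclonal antibody in 3 libraries alone and 4 with all 3 factors (numbers 2 to 5). Gata4 and Tbx5, with goat polyclonal antibodies, had 4 and 3 libraries alone and 6 and 4 with all 3 factors. Input chromatin had 6 libraries with all 3 factors and 1 for each factor alone.

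Counts over the regions ran from 918300 to 968131 per library for Mef2c alone and from 383071 to 2377616 for Mef2c with all 3 factors, and from 97474 to 301678 for inputs. The Gata4 libraries 1 and 6 with all 3 factors, inputs 1 and 3, and inputs 2, 4 and 5 of these cells agree within sampling noise and were counted as 1 sample each in means and tests, whereas the rule sums them in full. The library labelled Gata4 alone number 4, which the rule leaves out, stood apart from the other 3 of its group and near the inputs. Mef2c number 4 with all 3 factors stood above the other 3 Mef2c libraries in the member regions, and the main results that rest on it are also given without it. This was not particular to the members. At the regions that only Mef2c bound in both settings it took 34.4% of counts, against 23.9 to 30.9% in the other 3. At the regions bound by no factor in either setting it was the lowest, with 9.02 CPM per region against 10.4 to 19 CPM. No gene was assigned to a region and no sequence is shown, because the gene and promoter tables at hand describe another build than mm9, that of the regions. The regions were 201 to 1484 bp wide, and the members 201 to 786 bp.

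In the cells with Mef2c alone, the member regions took 12.4, 11.9 and 12% of the Mef2c counts in libraries 1, 2 and 3, a mean of 12.1 ± 0.26% (SD, n = 3). With all 3 factors they took 3.41, 3.68, 5.03 and 3.72% in libraries 2, 3, 4 and 5 (3.96 ± 0.725%, n = 4). The 2 groups did not overlap, and the highest library with all 3 factors was number 4. Per region, this was 101 ± 2.17 CPM alone and 33.1 ± 6.06 CPM with all 3 factors. A lower Mef2c level with all 3 factors was not particular to the members. The 3534 regions that only Mef2c bound in both settings went from 130 ± 1.11 CPM per region alone to 84 ± 12.3 CPM. Their share of counts went from 46.1 ± 0.392% to 29.7 ± 4.36%. Shares and CPM are relative to each library's counts over the regions, so they do not measure the amount of Mef2c bound. Mef2c passed the threshold at 7168 of all regions with all 3 factors and at 5891 alone. What lowered the shares was not tested. The cells were not sorted, so the number of cells with bound Mef2c and the amount bound per cell cannot be told apart either.

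Inputs with all 3 factors took 3.96 ± 0.147% (n = 3 samples), so Mef2c with all 3 factors was at the input level over the members as a whole. That level lay above the background of these libraries. At the 10106 regions that passed the threshold in neither setting for any factor, Mef2c with all 3 factors had 12.5 ± 4.47 CPM per region (n = 4), and Mef2c alone had 9.66 ± 0.259 CPM (n = 3), against 32.8 ± 0.754 CPM in the inputs of the cells with all 3 factors. Counts are scaled to a total that the bound regions dominate, which puts unbound regions below the input and E below 0.

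Gata4 and Tbx5 were low in the members in both settings. Gata4 took 1.5 to 2% of counts alone in libraries 1 to 3 and 1.83 ± 0.474% with all 3 factors (n = 5). Tbx5 took 1.46 ± 0.134% alone (n = 3) and 1.31 ± 0.193% with all 3 factors (n = 4). Both factors lay near their level in regions without a bound factor. Median E in the members was -1.11 for Gata4 and -1.39 for Tbx5 with all 3 factors, against -1.09 and -1.45 at the regions bound by no factor. At 143 members (12%) either factor had an E above 0 in any setting. The library labelled Gata4 alone number 4 was not used by the rule, and 3.95% of its counts (95% exact binomial interval 3.86 to 4.03) fell in the members, within the range of the inputs.

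**Figure D1:**
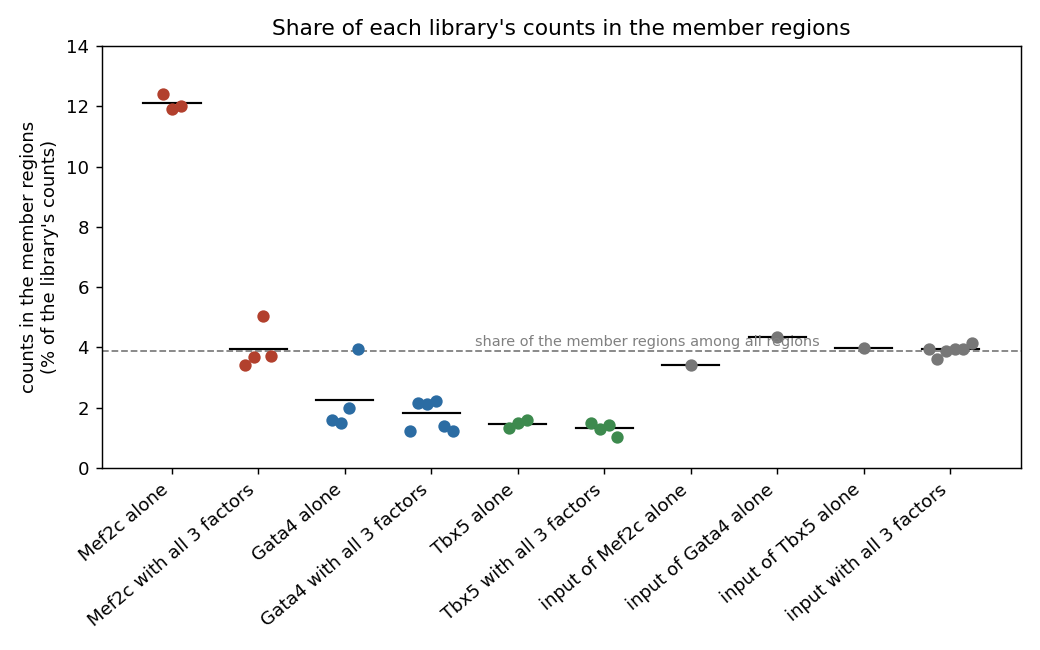
Percent of each library's counts that fell in the 1196 member regions, with 1 point per library, a black bar at the mean of the samples of the group and a dashed line at the members' share of all regions, 3.88%. The 3 Mef2c alone libraries lie at 11.9 to 12.4%, the Mef2c libraries with all 3 factors at 3.41 to 5.03%, near the inputs, and the Gata4 and Tbx5 libraries lower, except the library labelled Gata4 alone number 4.

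Mef2c alone ranged widely among the members. E alone ran from 0.59 to 3.45 with a median of 1.35 and quartiles of 0.98 and 1.75, and 174 members (14.5%) had an E of at least 2. With all 3 factors, E of Mef2c had a median of 0.22 and quartiles of -0.44 and 0.45. Of the 1196, 426 (35.6%) lay within 0.2 under the threshold, 750 (62.7%) had an E above 0 and 446 (37.3%) an E of 0 or less, at or under the input. Only 194 (16.2%) were at or below the median of all regions, -0.91, and 25 (2.09%) at or below the median of the regions bound by no factor, -1.63. Without number 4, the median E of the same members was 0.02, 613 (51.3%) were above 0 and 239 (20%) at or below the median of all regions. The difference of E, alone minus all 3 factors, had a median of 1.43 and quartiles of 0.93 and 2.00. It was at least 2 at 296 members (24.7%) and under 0.5 at 118 (9.87%). At the regions that only Mef2c bound in both settings, this difference had a median of 0.48 and quartiles of 0.07 and 0.87.

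**Figure D2:**
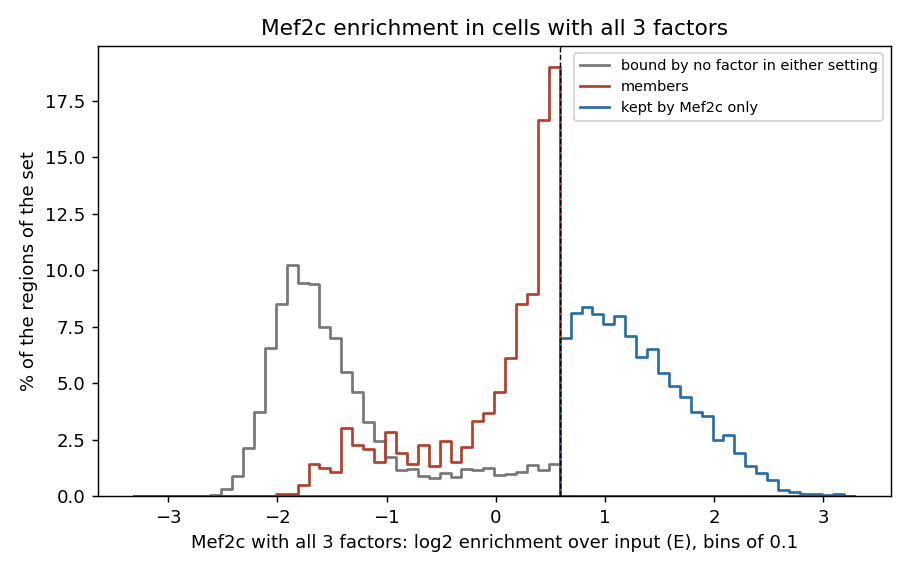
Distribution of Mef2c enrichment E with all 3 factors in bins of 0.1, as percent of the regions of each set, for the members, the 3534 regions that only Mef2c bound in both settings, and the 10106 regions bound by no factor in either. The dashed line is the threshold that divides the first 2 sets, the members pile up below it with a median of 0.22, and a smaller part of them reaches down to the regions bound by no factor (median -1.63).

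The number of members depended on how groups were scaled. TMM scaling of the summed groups, which sets the typical region level with the input, raised the median E of all regions by 1.34 for Mef2c alone and by 0.91 for Mef2c with all 3 factors. Under it, 297 of the 1196 (24.8%) still met the rule, whereas 885 passed the threshold for Mef2c with all 3 factors. The rule then kept 1938 regions, of which 1641 were under the threshold for Mef2c alone with the scaling by totals. Leaving out Mef2c number 4 with all 3 factors gave 1491 members, 1132 of them among the 1196. Across all alternatives and single libraries left out, 153 regions met the rule every time.

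Libraries differed in how far they showed the low Mef2c level with all 3 factors. Taken library by library, 1000 members (83.6%) were over the threshold in each Mef2c alone library, and 609 (50.9%) were under it in each Mef2c library with all 3 factors. In 109 (9.11%), 2 or more libraries with all 3 factors were over it. Number 4 was over it at 410 members (34.3%), number 3 at 137 (11.5%), number 5 at 111 (9.28%) and number 2, the shallowest, at 46 (3.85%). Over all regions 22.8, 20.3, 23.4 and 16.2% passed in numbers 4, 3, 5 and 2. The median E of the members was 0.36 in number 4 against -0.18, -0.06 and 0.02 in numbers 2, 3 and 5.

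The rule was applied again without each library in turn, and the library left out was read at the regions so chosen, with the same inputs. Mef2c alone libraries 1, 2 and 3 had median E of 1.42, 1.30 and 1.31 at the 1174, 1217 and 1199 regions chosen without them, and 91.7, 88.9 and 90.2% of these regions passed the threshold in them, against 18.9 to 19.2% of all regions. The level alone thus held in each library left out. Mef2c with all 3 factors was less even. At the 1126, 1135 and 1162 regions chosen without numbers 2, 3 and 5, these libraries had median E of -0.20, -0.06 and 0.08, and 4.17, 16.1 and 21.8% of the regions passed, against 16.2, 20.3 and 23.4% of all regions. In numbers 3 and 5 the share was thus near that of all regions, which include bound ones. At the regions bound by no factor in either setting, chosen with all libraries, 1.14 and 1.98% passed in numbers 3 and 5. The median E of all regions was -0.96 and -0.84 in them, lower than at the regions chosen without them. At the 1491 regions chosen without number 4, its median E was 0.61 and 51.6% passed, against 22.8% of all regions in that library. Gata4 and Tbx5 libraries left out had median E from -1.61 to -0.77 and passed at 2.59% of the regions or fewer, against 15.6 to 24.3% of all regions.

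The regions bound alone by Mef2c only numbered 4999 and met several fates in the cells with all 3 factors. Most, 3534 (70.7%), were still bound by Mef2c only, and 261 by Mef2c joined by Gata4, Tbx5 or both. Mef2c was under the threshold at 1204, of which 1196 (23.9%) were the members and 8 were bound by Gata4 or Tbx5 in its place. Among these 4999 regions, one where Mef2c fell under the threshold thus rarely passed it for another factor. Gata4 alone and Tbx5 alone were under the threshold at all of them by the choice. Over all 30815 regions, 6117 passed for Gata4 and 7253 for Tbx5 with all 3 factors. The share of a factor's own regions left without any factor was 9.36% for Tbx5 (465 of 4968) and 46.8% for Gata4 (2428 of 5187), by the same rule, and the difference between factors was not tested. Without Mef2c number 4 the share for Mef2c was 29.8%.

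**Figure D3:**
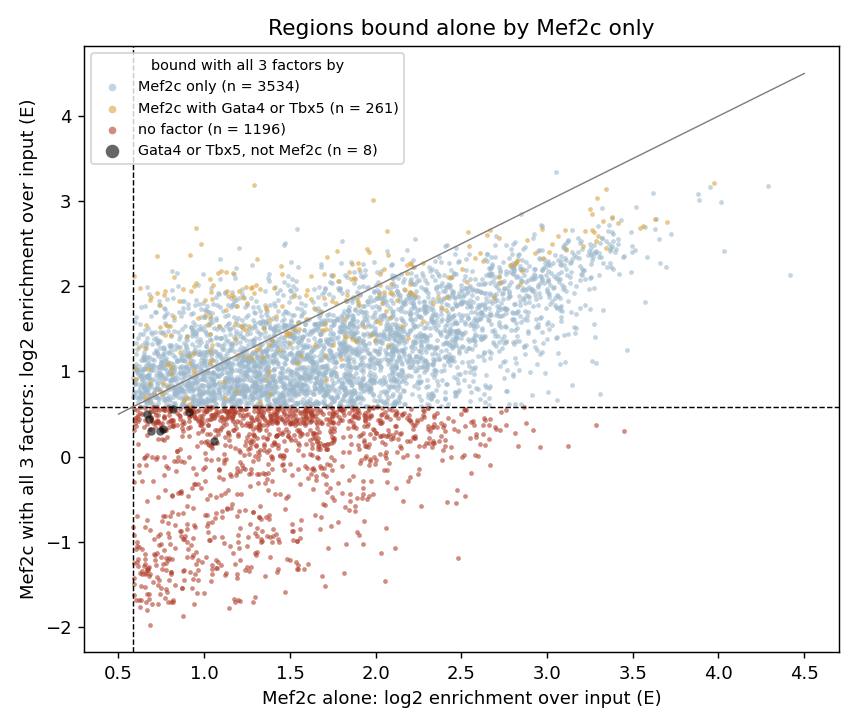
Mef2c enrichment E alone (horizontal) and with all 3 factors (vertical) at the 4999 regions bound alone by Mef2c only, with 1 point per region coloured by what bound it with all 3 factors; dashed lines mark the threshold and the grey line equal values. The 1196 members form the cloud below the horizontal line, densest just under it, and the 8 regions with Gata4 or Tbx5 but not Mef2c lie at the weak end of Mef2c alone.

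The share of members was lower among stronger sites of Mef2c alone, as counted in these summed groups and with no test. Of the regions with E alone from the threshold to 0.8, 36.3% were members (170 of 468, 95% Wilson interval 32.1 to 40.8), and of those from 1.5 to 2, 25.6% (302 of 1180). The share was 8.03% from 2.5 to 3 (38 of 473) and 1.36% from 3 upward (3 of 220, interval 0.465 to 3.93). E with all 3 factors was at or below the median of all regions at 74 of the 468 weakest sites, and at 0 of the 473 and 0 of the 220 sites of the last 2 groups. Without Mef2c number 4 the share was 41.7% in the weakest group and 3.18% in the strongest (7 of 220). This order follows in part from the rule, since a site with a high E alone must differ more between the settings to lie under a fixed threshold. The difference of E itself went the other way, with a median of -0.07 over the regions of the weakest group and 0.95 over those of the strongest. The groups were cut on E alone, which is a term of this difference, so its order is set in part by the grouping too. The intervals cover counting of regions only, which share libraries and are no replicates.

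The share was higher at isolated regions as well. Where another region lay within 2 kb, 16.3% of the regions bound alone by Mef2c only were members (142 of 869), and this share was 20.7% at 2 to 10 kb, 25.6% at 10 to 30 kb, 28.9% at 30 to 100 kb and 32% beyond 100 kb (109 of 341). Without number 4 it was 19.3% within 2 kb and 38.4% beyond 100 kb. The order was the same at sites of like strength. With E alone under 1.25, 25.6% were members where a region lay within 10 kb and 37.3% where none did, and with E alone of 2 or more the shares were 8.35 and 13.2%. Over 6 classes of width the share was 22 to 26.3%. Input level went with the share in part, from 17% of the regions under 20 CPM of input to 28.3% of those at 40 to 50 CPM. Above that the share was 23.8%. The input level is the divisor in every E, so this order may follow in part from the rule. What lies behind isolation, such as base composition or distance from genes, was not tested.

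**Figure D4:**
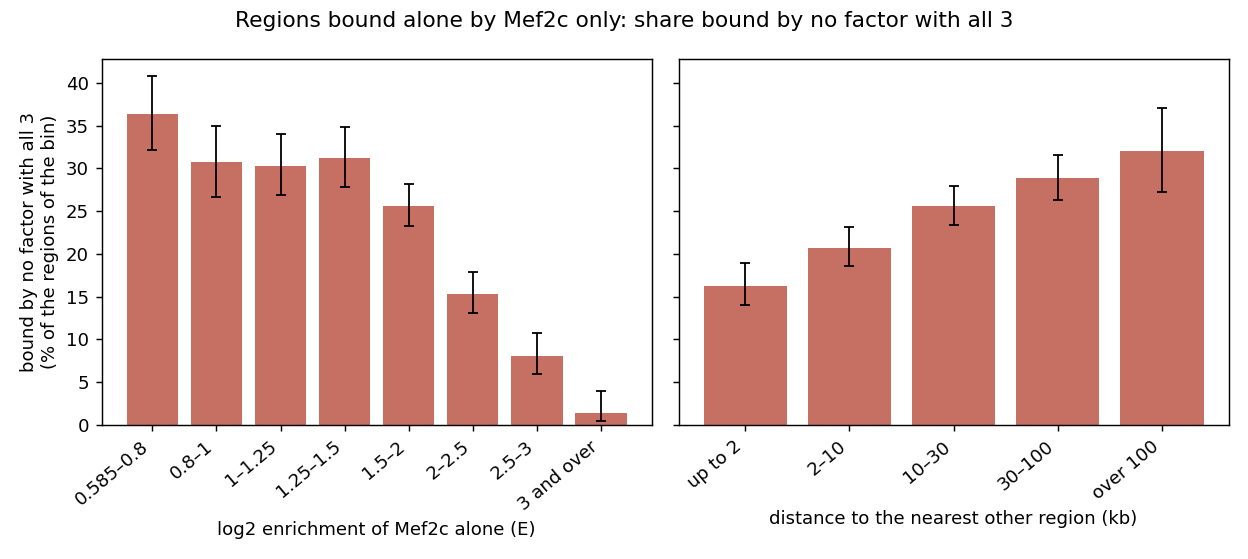
Percent of the regions bound alone by Mef2c only that were bound by no factor with all 3, by the enrichment E of Mef2c alone (left) and by the distance to the nearest other region in kb (right). Bars are shares of the regions of the bin with 95% Wilson intervals; the share goes from 36.3 to 1.36% from weak to strong sites and from 16.3 to 32% from crowded to isolated ones.

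The members had a median width of 233 bp, against 228 bp for the regions kept by Mef2c only and 234 bp for all regions. Their nearest other region was a median of 18556 bp away, against 12282 bp for the kept regions and 12844 bp for all regions. The regions bound by no factor in either setting were as far apart, with a median of 19187 bp and 33.8% within 10 kb, where 33.7% of the members were. For the 194 members at or below the median of all regions this distance was 32396 bp. The nearest region was itself a member for 95 of the 1196 (7.94%), against 3.81% over all regions and 4.87% over those bound by no factor, and in 49 (4.1%) it had gained Mef2c with all 3 factors, against 8.55% over all regions, 8.89% for the kept ones and 7.4% for those bound by no factor. A region that gained Mef2c was thus seldom the nearest one in any of these sets, and least often for the members. A region that Mef2c already bound alone cannot count as gained. The nearest region was of that kind for 26.3% of the members, against 24.7% for the kept ones, 19.2% for those bound by no factor and 19.6% over all regions. None of these differences was tested. Members were found on all chromosomes but Y. They made up 6.07% of the regions of chromosome 13 (88 of 1450) and 2.16% of those of chromosome 7 (30 of 1391). Of the regions bound alone by Mef2c only, the share that were members ran from 14% on chromosome 7 (30 of 215) and 15.3% on X (27 of 177) to 29.4% on 13 (88 of 299) and 29.5% on 6 (92 of 312).

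Per region, Mef2c with all 3 factors was compared with Mef2c alone by edgeR's quasi-likelihood test over 19391 regions. This contrast is the one that chose the members, so nothing is read from the counts. All 1196 were tested and 1129 (94.4%) were called lower with all 3 factors at an adjusted p under 0.05, where 28.8% of all tested regions were, and 0 were called higher, where 31.3% were. With scaling by library totals, 21.9% of all tested regions were called lower and 39% higher. The median log2 fold change of the members was -1.86, against 0.15 over all tested regions. In CPM, every Mef2c alone library lay above every Mef2c library with all 3 factors at 1053 members (88%), where 14.2% of all regions had that order.

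The 10 members named as strongest alone were taken only where every Mef2c alone library lay above every Mef2c library with all 3 factors. Their lack of overlap was thus fixed by the choice. The strongest was chr13:75926991-75927193 (build mm9). Mef2c alone had 285, 280 and 290 CPM there in libraries 1, 2 and 3, and with all 3 factors 10.4, 21.8, 48.9 and 18.5 CPM in libraries 2, 3, 4 and 5, against 21.6 CPM in the summed inputs. All libraries alone were far above, number 4 was the highest with all 3 factors, and the log2 fold change was -3.66 ± 0.31 (SE). Its nearest region, at 75939892 to 75940120, 12698 bp away, showed the reverse order. Mef2c was at 0 to 1.06 CPM there alone and at 44.8 to 107 CPM with all 3 factors, where Gata4 (E of 0.95) and Tbx5 (1.37) were bound as well. This member is 1 of the 49 whose nearest region gained Mef2c.

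At chr13:119578413-119578661 Mef2c alone had 309, 290 and 316 CPM, and with all 3 factors 15.7, 34.4, 58.7 and 24 CPM, with 26.8 CPM in the inputs (log2 fold change -3.37 ± 0.29). At chr10:101246009-101246211 the values were 289, 277 and 296 CPM alone and 23.5, 36.1, 52.9 and 15.1 CPM with all 3 factors (-3.40 ± 0.30). Again number 4 was the highest with all 3 factors. The region chr12:47882289-47882638 had 303, 309 and 347 CPM against 10.4, 25.2, 64 and 35.3 CPM (-3.37 ± 0.30). Its nearest region, at 47902341 to 47902543, was a further member, with Mef2c at 62 to 79.5 CPM alone and 14.3 to 25.7 CPM with all 3 factors.

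At chr1:27518331-27518558 the libraries alone differed more than at the other 9, with 125, 177 and 258 CPM, against 23.5, 26.9, 29.1 and 24.8 CPM with all 3 factors (-3.09 ± 0.28). The region chr12:15005436-15005831 kept the most Mef2c of these 10, at 314, 404 and 395 CPM alone and 70.5, 71.3, 45.9 and 92.1 CPM with all 3 factors (-2.68 ± 0.23), with an E of 0.58 just under the threshold. In this region number 4 was the lowest. The 4 others were chr18:90508779-90508981, chr5:81280294-81280516, chr13:83600860-83601062 and chr9:119834229-119834494, with E alone from 2.76 to 2.88 and log2 fold changes from -2.64 to -3.18. All 10 had an E of Mef2c with all 3 factors between 0.11 and 0.58 in the summed group, number 4 included. In that sum they lay near the input level and none at the median of the regions bound by no factor. Their E without number 4 is not given. Without it the log2 fold change was more negative at each but chr12:15005436-15005831, where it was -2.47. It was -4.20 at chr13:75926991-75927193 and -3.81 at chr13:83600860-83601062.

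The members lowest with all 3 factors were other regions, ranked by that level and not by the size of the difference. Among members with Mef2c alone enriched at least 3-fold, the lowest E with all 3 factors was -1.52, at chr15:24563996-24564198. Mef2c alone had 102, 80.6 and 96.7 CPM there, and with all 3 factors 7.83, 10.1, 4.07 and 3.79 CPM, all under the 25.1 CPM of the inputs (log2 fold change -4.26 ± 0.36). At chr8:45929595-45929879 the values were 98, 211 and 142 CPM alone and 26.1, 9.23, 6.4 and 7.15 CPM with all 3 factors (-4.25 ± 0.38). Number 2 was apart from the other 3 there.

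At chr17:82255722-82256098 the libraries with all 3 factors were close together, at 15.7, 15.1, 19.2 and 14.7 CPM, against 133, 197 and 231 CPM alone (-3.78 ± 0.29). Mef2c had 88.2, 102 and 130 CPM alone and 18.3, 8.39, 9.89 and 5.05 CPM with all 3 factors at chr5:106015618-106015887 (-3.86 ± 0.35). The last was chr17:54295304-54295507, with 88.2, 67.1 and 68 CPM alone and 10.4, 6.71, 4.65 and 5.47 CPM with all 3 factors (-3.88 ± 0.35). At all 5, each of the 4 libraries with all 3 factors was under the summed inputs, and no other factor had an E above -0.24 in either setting.

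**Figure D5:**
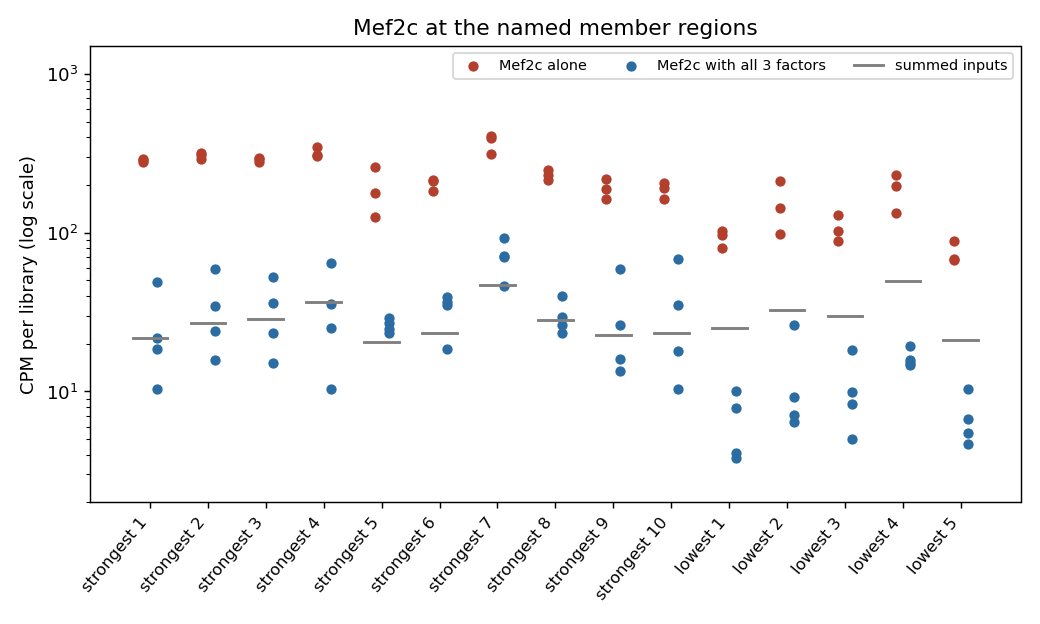
Mef2c CPM per library on a log axis at the 10 members strongest alone and the 5 lowest with all 3 factors, in the order in which the text's rule ranks them; red points are the 3 libraries alone, blue points the 4 with all 3 factors and grey lines the summed inputs. In the summed group with all 3 factors, number 4 included, the strongest sites lie near the input (E from 0.11 to 0.58). The lowest ones lie below it (E from -1.27 to -1.52).

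Regions on either side of a threshold had nearly the same value of the measure it is set on. By E alone, the nearest members were chr15:37859342-37859544, chr10:27098078-27098325 and chr1:170167835-170168037 with 0.59 each, and the nearest regions outside were chr16:87534268-87534663, chr1:89797695-89797897 and chr2:156543921-156544197 with 0.58 each. By their highest E with all 3 factors, which was that of Mef2c, the members chr13:42353862-42354064, chr10:87207523-87207765 and chr6:140261984-140262186 had 0.58 each. Outside were chr3:34440180-34440413, chr3:115832771-115833022 and chr2:106876144-106876480 with 0.59 each. These 3 members were stronger alone (E of 1.16, 1.31 and 1.96) than the 3 regions outside (0.81, 0.89 and 0.63), with log2 fold changes of -0.92, -1.08 and -1.73 against -0.55, -0.69 and -0.39. At the first of these members Mef2c was at 67.5, 34.1 and 39.3 CPM alone and at 26.1, 42, 19.8 and 31.1 CPM with all 3 factors, so the groups overlapped. At the last, chr6:140261984-140262186, they did not, with 134 to 145 CPM alone and 28.7 to 74.7 CPM with all 3 factors.

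Input chromatin was compared between the settings, since the rule pools the inputs and does not use this contrast. The members took 4.34% of the counts of the input of Gata4 alone (95% exact binomial interval 4.23 to 4.45), 3.4% of that of Mef2c alone (3.3 to 3.5) and 3.97% of that of Tbx5 alone (3.85 to 4.09). Inputs with all 3 factors ranged from 3.84 to 4.13% over 3 samples. The input of Mef2c alone was the lowest, at 28.4 CPM per member region, whereas at the regions kept by Mef2c only it had 32.6 CPM, close to 32.4 and 32.5 CPM in the other inputs of single factors. It is 1 library, so this has no replicate check, and the intervals cover counting error only. Region by region, edgeR's quasi-likelihood test of the 3 inputs alone against the 3 samples with all 3 factors called 0 of 23 members and 0 of 853 regions tested (0%), with unadjusted p under 0.05 at 2 and 43. DESeq2 called 0 as well. With no filter on low counts, 0 of 1196 members and 0 of 30815 regions (0%) were called, and 50 members (4.18%) had an unadjusted p under 0.05, where 5.47% of all regions did. Inputs held few counts per region, so differences in single regions were not detectable at this depth unless large.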

How the data were processed

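ChIP-seq and input libraries of a mouse cardiac fibroblast line were analysed from a single deposited table of whole-number read counts per region, 33 libraries in all, not normalised. Per the submitters' processing notes, reads were aligned with Bowtie2 2.2.4 to mm9 and counted with featureCounts. Not given in the sources used here: how the authors picked the regions, and whether duplicate reads were removed. Groups came from the sample titles. The members, lists and named regions were chosen with earlier results of these data known.

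Enrichment E was computed as the report states. Tests used edgeR 4.0.16 (glmQLFit with robust estimation and glmQLFTest, TMM, minimum count 10 and minimum total 15), two-sided, with Benjamini-Hochberg adjusted p over all regions tested. The SE of a log2 fold change was taken from its size and F. DESeq2 1.42.0 was an alternative, and scripts were tested on simulated data. Libraries of a group with a chi-square p of 0.05 or more over their counts were summed for tests. Named regions were the 10 members highest alone without overlap of libraries, the 5 lowest with all 3 factors with Mef2c alone at least 3-fold enriched, and 3 on each side of each threshold. Up to 5 members called between inputs were to be named, and there were none. Motif searches were not run without a genome of the build. Alternatives changed the threshold, pseudocount, scaling, inputs, filter, test and libraries used. The labels call libraries biological replicates. Depths, from 97474 to 2377616 counts, set the precision.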

Additional observations from a re-analysis of the deposited data

Results flagged for a closer look

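Of 31 sets of 4 or 5 values examined for a sample far from the others, 2 were picked out, where chance alone picks about 1 in 20. Both were high values of Mef2c number 2 with all 3 factors, the shallowest library of its group. At chr8:45929595-45929879 it had 26.1 CPM against 6.4 to 9.23 CPM in the other 3 libraries. At chr10:27098078-27098325 it also had 26.1 CPM, against 5.87 to 7.56 CPM.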

How the results depend on the processing

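The 1196 members became 1823 with a threshold of 1 (883 shared with the 1196) and 1938 with TMM scaling (297 shared). Under the other settings they numbered 925 to 1738, and without 1 library 1126 to 1491. The share of regions bound alone by Mef2c only that were bound by no factor, 23.9%, was 18.1% with a threshold of 0.4, 41.5% with 1, 21.6 and 26.9% with pseudocounts of 1 and 10 CPM, 27.8% with TMM scaling and 33.9% with the same number of regions bound in every group. With equal weight for every library, chosen after seeing the data, it was 27.7%, and without 1 library 22.5 to 29.8%. Fewer or more regions pass a moved threshold by construction, and for the other changes the cause was not tested. Members called lower for Mef2c numbered 1041 to 1187 across settings and 1070 to 1151 without 1 library. With scaling by library totals the median log2 fold change of all tested regions moved from 0.15 to 0.47 and that of the members from -1.86 to -1.55. With only numbers 2, 4 and 5 of Mef2c with all 3 factors 1090 were called. Numbers 2 and 3 occur in both Mef2c groups, but deviations of same-numbered libraries did not go together (r = -0.007 and -0.012), so no pairing was seen. With so few libraries, these correlations cannot exclude that same-numbered ones were made together. With the replicate block 1104 members were called. The count of members called between inputs was 0 under every setting, also without 1 library. Of 351 log2 fold changes of named regions under alternatives, 30 moved by more than 1 SD and 0 changed sign.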
